A study of Mus musculus with 13 samples.

Results

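The genes described here encode the protein parts of the cytosolic ribosome. They were taken by name from the 41388 genes of the deposited tables: protein-coding mouse genes with an Rpl or Rps symbol, together with Rpsa, Rplp0, Rplp1 and Rplp2, and without the Rps6k kinases and the ribosomal pseudogenes. This gave 83 members, 32 of the small subunit and 51 of the large subunit. A filter on low counts was passed by 80 of them, among 15406 genes tested in all, and the other 3 were Rpl10l, Rpl39l and Rpl3l. The pattern leaves out some genes that also belong to the ribosome, among them Fau, Rpl36al and Rack1, and these were kept as a separate list of 4 relatives.

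RNA was sequenced from EGFP-positive cells of dorsal root ganglia (DRG), sorted by flow cytometry from adult C57BL/6 mice at 3 months of age. EGFP reports Ret, a receptor tyrosine kinase of sensory neurons. The design text describes heterozygotes with EGFP at the Ret locus and the genotype label reads Tg(Ret-EGFP)SJ, so cells of all 4 groups carry the reporter and no EGFP-negative cells are among the libraries. The groups were male L6S1 (ganglia of levels L6 and S1, replicates A, D, E and F), male L345 (levels L3 to L5, replicates A, B and C), female L6S1 (A, B and C) and female L345 (A, B and C). Each library pools 2 to 9 mice. The pools add up to 61 mice, unless some mice served for both levels, on which the labels are silent. Total counts were 21471328 to 27011995 in male L6S1, 13030096 to 21104274 in male L345, 15826788 to 22175610 in female L6S1 and 18437222 to 23827169 in female L345. Levels are given as CPM, that is counts relative to a library total that was scaled by its TMM factor, a measure of how the bulk of genes compares between libraries.

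Ribosomal proteins surround the ribosomal RNAs and are made in near-equal numbers, because each ribosome holds about a single copy of most of them. Their messages are short and abundant in most cells. Growing cells set their translation through a terminal oligopyrimidine tract at the cap, under the control of the mTOR kinase, and neurons carry part of these messages into their axons. The genes have also left many processed pseudogenes in mammalian genomes, so that parts of their messages have near-identical copies elsewhere.

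Libraries D and E of male L6S1 stood apart from the other 11. They lay at 73.1 and 120.8 on the first principal component of all tested genes, which held 40.8% of the variance, while the other libraries ranged from -52.1 to 21.5. Their TMM factors were 0.925 and 0.796, against 1.01 to 1.05 elsewhere. Markers of sensory neurons summed to 22970 and 21212 CPM in D and E, 16959 and 19331 CPM in male L6S1 A and F, and 14904 to 15749 CPM in male L345. A few abundant genes such as Tubb3 and Stmn2 carry this sum. The median of the 13 markers lay 0.16 above the male L345 mean in D on the log2 scale, with 8 above 0, and at -0.37 in E, with 6 above 0, and Pou4f1 had 412 and 264 CPM in D and E, against 810 to 1021 CPM in male L345. Ret itself was listed at 154 and 87.2 CPM in D and E, against 181 to 221 CPM in the other 11 libraries. Counts and medians over the members and the other lists, and the fold changes of the members with the smallest p, are therefore also given without D and E.

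How well a member can be counted depends on its sequence, which is shown first for 4 members. The lines give the opening 60 coding bases of the GENCODE M21 transcript on GRCm38. Capitals mark a base at which the copy differs from the member.
Rps6 (4, 86854660 to 86857412, minus strand): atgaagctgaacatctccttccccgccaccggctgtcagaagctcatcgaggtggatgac
Rps27 (3, 90212522 to 90213651, minus strand): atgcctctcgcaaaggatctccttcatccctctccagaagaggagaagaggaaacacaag
Rpl4 (9, 64173375 to 64178666, plus strand): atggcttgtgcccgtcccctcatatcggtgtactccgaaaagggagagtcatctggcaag
Gm5835, processed pseudogene closest to Rpl4 (1, 143093347 to 143094616, minus strand): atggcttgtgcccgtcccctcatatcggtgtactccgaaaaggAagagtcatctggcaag
Rpl8 (15, 76904078 to 76906314, plus strand): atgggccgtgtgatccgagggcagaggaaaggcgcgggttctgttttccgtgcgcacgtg
The Rps6 stretch stands without a mismatch in 5 other annotated genes, and in 11 with up to 4 mismatches. That of Rps27 stands whole in 1 other gene, the protein-coding copy Rps27rt on chromosome 9, and in 5 with up to 4 mismatches. Rpl4 had 1 copy, with 1 mismatch, and Rpl8 had 0 copies within 4 mismatches.

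The same contrast held over whole transcripts. Of all 100-base words of a member's principal protein-coding transcript, 98.4% in Rps27 and 83.6% in Rps6 also occurred in another gene, against 5.14% in Rpl4 and 1.41% in Rpl8. The median over the 83 members was 31.1%, with 24 members above 50% and 9 at 0%. For comparison, the median over 36 short nuclear genes of oxidative phosphorylation was 0%. How reads that match several genes were counted is not given in the sources used here. In addition, 27 members share some exon bases with another gene in the files and 9 share more than 10% of them, the highest being Rpl35 with 66.2%, Rpl23a with 62.3% and Rpl24 with 47.0%.

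Proteins that a ribosome holds in like numbers were listed at levels per kb of gene length from 0.533 to 486 CPM per kb among the tested members. Rpl32, a large-subunit protein, was highest of all members at 486 CPM per kb as a mean of 13 libraries. Among the next highest were Rpl4 at 410, Rplp1 at 381 and Rpl8 at 367 CPM per kb. Among the lowest of the tested members were Rpl5 at 0.767, Rps6 at 0.779 and Rpl23a at 0.802 CPM per kb, with Rpl24 next. Rps6, the small-subunit protein phosphorylated by the S6 kinases, thus had only 8 to 61 counts per library.

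Members with more shared sequence had lower levels. The 14 tested members with under 10% of their 100-base words shared had a median of 114 CPM per kb, with a range of 7.54 to 486. The 42 members with 10 to 50% shared had a median of 34.5 CPM per kb, and the 24 members above 50% had a median of 3.38, with a range of 0.533 to 34.8. Spearman's rho between level per kb and the shared share was -0.69 over the 80 tested members, a description across genes that come from the same libraries. The 24 most shared members held 5.20% of all counts of the members. The oxidative phosphorylation genes had a median of 216 CPM per kb. Levels of different members are therefore given here as counted, and the part that shared sequence has in them was not tested.

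**Figure D1:**
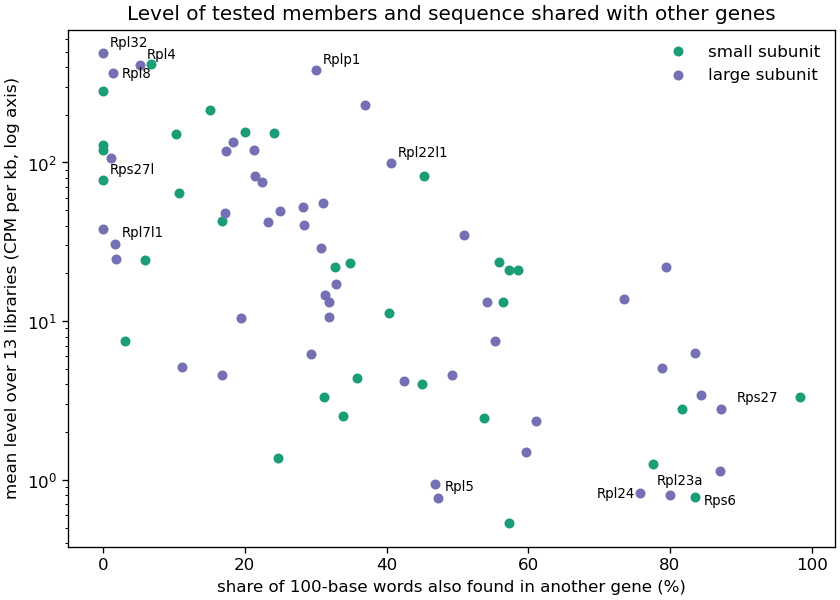
Mean level over 13 libraries (CPM per kb, log axis) of the 80 tested members against the share of their 100-base words that also occur in another gene, by subunit. Members on the left such as Rpl32 and Rpl8 lie at 486 and 367 CPM per kb, and members on the right such as Rps6 and Rps27 lie at 0.779 and 3.33 CPM per kb.

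The symbols Rpl3l, Rpl10l, Rpl39l, Rpl22l1, Rpl7l1 and Rps27l carry a mark of paralogs of another member, and 3 of these were near absent. Rpl10l, a testis form of Rpl10 in mouse, had 0 counts in all 13 libraries, where 3 counts would be 0.111 to 0.230 CPM. Rpl39l, a testis-enriched form of Rpl39, had 0 to 3 counts per library and 7 in all. Rpl3l, the striated muscle form of Rpl3, had 0 to 4 counts and 11 in all. None of these 3 shares a 100-base word with another gene. Their partners were all counted, Rpl10 at 7.07, Rpl39 at 35.3 and Rpl3 at 68.6 CPM as means over 13 libraries.

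The other 3 paralogs were well counted. Rps27l, a p53-induced form of Rps27, averaged 63.1 CPM over 13 libraries and shares 0% of its 100-base words with another gene, whereas Rps27 averaged 0.848 CPM with 98.4% shared. Rpl22l1 averaged 48.4 CPM and its partner Rpl22 averaged 111 CPM. Rpl7l1 averaged 79.9 CPM beside 141 CPM for Rpl7. Per kb of gene length these were 77.3 for Rps27l and 3.33 for Rps27, 98.9 for Rpl22l1 and 38.2 for Rpl22, and 30.7 for Rpl7l1 and 52.4 for Rpl7.

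As a group the members took a small and, in 11 libraries, narrow share of all counts. Their summed counts were 0.564%, 1.39%, 1.12% and 0.560% of the library total in male L6S1 A, D, E and F. The 3 male L345 libraries gave 0.514%, 0.524% and 0.531%. In female L6S1 the shares were 0.457%, 0.520% and 0.571%, and in female L345 they were 0.664%, 0.515% and 0.540%. D and E were the only libraries above 0.664%. A and F also lay above all 3 male L345 libraries, by far less, and inside the range of the female libraries.

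The Wilson 95% interval of each share was narrow, 1.12% to 1.13% in E and 0.511% to 0.518% in male L345 A, the shallowest library, but it allows for counting error alone, and reads amplified by PCR without molecular identifiers are not independent molecules. The group means were 0.910% ± 0.417 in male L6S1 (SD, n = 4), 0.523% ± 0.00821 in male L345 (n = 3), 0.516% ± 0.0570 in female L6S1 (n = 3) and 0.573% ± 0.0796 in female L345 (n = 3). Without D and E the mean of male L6S1 was 0.562%. Annotated pseudogenes of ribosomal proteins held a further 0.0106% and 0.00857% in D and E, and 0.00369% to 0.00711% in the other libraries.

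**Figure D2:**
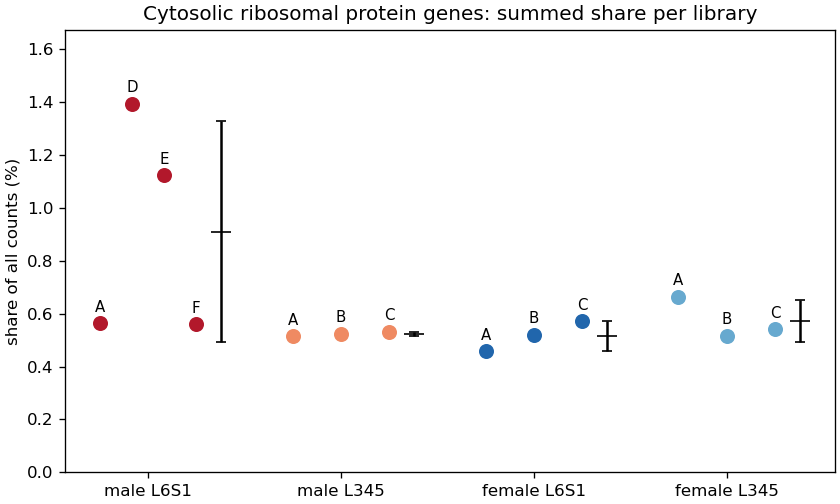
Summed counts of the 83 members as a percent of the library total, 1 lettered point per library, with the group mean and SD as a bar to the right of each group. Male L6S1 D and E lie at 1.39% and 1.12%, and the other 11 libraries lie between 0.457% and 0.664%.

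The comparison of L6S1 with L345 in males asks whether sacral and lower lumbar ganglia differ from mid-lumbar ones in these genes. No member passed the test in males. At an adjusted p under 0.05 by edgeR's quasi-likelihood test, 0 of the 80 tested members were called, where 34 of 15406 genes (0.221%) were called, all higher in L6S1. Before adjustment 54 members had a p under 0.05, where 25.3% of all tested genes did. The log2 fold change was above 0 for 78 of 80 members, with a median of 0.97 beside 0.04 for all tested genes. Every male L6S1 library was above every male L345 library for 20 members, and below for 0, where 9.20% of all tested genes were above and 9.49% were below.

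Rps7, a small-subunit protein, had the smallest p in males. It was listed at 17.5, 75.2, 55.4 and 19.1 CPM in male L6S1 A, D, E and F, against 11.2, 15.9 and 15.3 CPM in male L345. All L6S1 values exceeded the L345 values, but A and F by far less than D and E. On the log2 scale the fold change was 1.56 (SE 0.45, edgeR adjusted p = 0.137).

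Rps15, a protein of the small-subunit head, had 72.7, 291, 171 and 103 CPM in male L6S1, against 69.3, 59.8 and 67.5 CPM in male L345. Rpl27 had 5.92, 12.7, 16.8 and 9.22 CPM in male L6S1, against 5.28, 5.49 and 5.26 CPM in male L345. For both genes the groups did not overlap, and the log2 fold changes were 1.28 (SE 0.38) and 1.06 (SE 0.32), each with an adjusted p of 0.137 by edgeR.

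Rpl30 had 19.0, 82.0, 72.0 and 29.6 CPM in male L6S1, against 22.6, 19.7 and 16.2 CPM in male L345, so that A lay inside the L345 range. Rpl41, which encodes the shortest ribosomal protein, had 96.8, 463, 243 and 133 CPM in male L6S1, against 82.9, 92.5 and 97.7 CPM in male L345, and here too A lay inside. Their log2 fold changes were 1.38 (SE 0.42) and 1.36 (SE 0.41), with an adjusted p of 0.137 each by edgeR.

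The size of the difference was largest for Rpl24, a large-subunit protein at the subunit interface, but from few counts. It had 0.935, 2.69, 1.75 and 0.656 CPM in male L6S1, against 0.446, 0.372 and 0.535 CPM in male L345, from 4 to 57 counts per library over the whole series. Its log2 fold change of 1.72 (SE 0.54) had an edgeR adjusted p of 0.137.

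At the other end stood 3 members. Rpl5, which with Rpl11 carries a small ribosomal RNA and binds Mdm2, had 3.78, 2.26, 2.81 and 2.40 CPM in male L6S1, against 2.68, 3.63 and 3.65 CPM in male L345. Its log2 fold change was -0.24 (SE 0.32), that of Rpl9 was -0.12 (SE 0.31) and that of Rpl15 was 0.06 (SE 0.26), with adjusted p of 0.641, 0.824 and 0.894 by edgeR. The groups overlapped for Rpl5, as D and F lay below the L345 range, E inside it and A above it.

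Among the members that are most often used as markers or references, the pattern of D and E returned. The ribosomal stalk consists of Rplp0, Rplp1 and Rplp2. Rplp0 had 196, 431, 561 and 209 CPM in male L6S1, against 152, 169 and 177 CPM in male L345. Rplp1 had 142, 547, 310 and 176 CPM in male L6S1, against 122, 144 and 152 CPM in male L345. Rplp2 had 78.6, 332, 124 and 103 CPM in male L6S1, against 73.3, 71.4 and 76.6 CPM in male L345. All 4 male L6S1 libraries lay above male L345 for Rplp0 and Rplp2, and for Rplp1 library A overlapped.

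Rps19, mutated in human Diamond-Blackfan anaemia, had 78.6, 237, 240 and 67.2 CPM in male L6S1, against 89.7, 70.8 and 78.6 CPM in male L345. Rps4x, on chromosome X, had 33.8, 71.7, 93.7 and 25.3 CPM in male L6S1, against 32.8, 30.2 and 28.8 CPM in male L345. Rps27a, whose product is made as a fusion with ubiquitin, had 3.38, 14.6, 9.53 and 3.75 CPM in male L6S1, against 2.68, 3.82 and 3.60 CPM in male L345. For Rps19 and Rps27a only D and E lay above every male L345 library, and for Rps4x also A, narrowly.

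Rpsa, the laminin receptor homologue of the small subunit, had 5.74, 9.10, 11.8 and 4.04 CPM in male L6S1, against 5.06, 5.82 and 5.55 CPM in male L345. Rpl11 had 3.92, 6.41, 8.95 and 3.28 CPM in male L6S1, against 1.93, 3.26 and 2.73 CPM in male L345. Rps6 had 0.801, 1.46, 3.22 and 2.22 CPM in male L6S1, against 0.595, 0.931 and 0.876 CPM in male L345. In Rps6 library F also lay above all male L345 libraries, and in Rpl11 all 4 did.

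With D and E left out the difference was smaller. The median log2 fold change of the 80 members in males was then 0.10, with 56 above 0, and 0 members had a p under 0.05 even before adjustment, where 7.72% of all tested genes did. The log2 fold changes were then 0.37 for Rps7, 0.41 for Rps15, 0.49 for Rpl27, 0.31 for Rpl30, 0.33 for Rpl41 and 0.80 for Rpl24. Those of Rpl5, Rpl9 and Rpl15 were -0.12, -0.24 and -0.18, so that Rpl15 turned in direction. Without library A alone, 46 members were called, all higher in L6S1, where 20.5% of all tested genes were called. With DESeq2 in place of edgeR 16 members were called, all higher in L6S1, where 7.53% of the genes with an adjusted p were called. Without the filter on low counts 4 members were called, where 0.981% of all genes were called. With a loess correction of each library for gene length, as listed in the files, the median was 0.46.

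**Figure D3:**
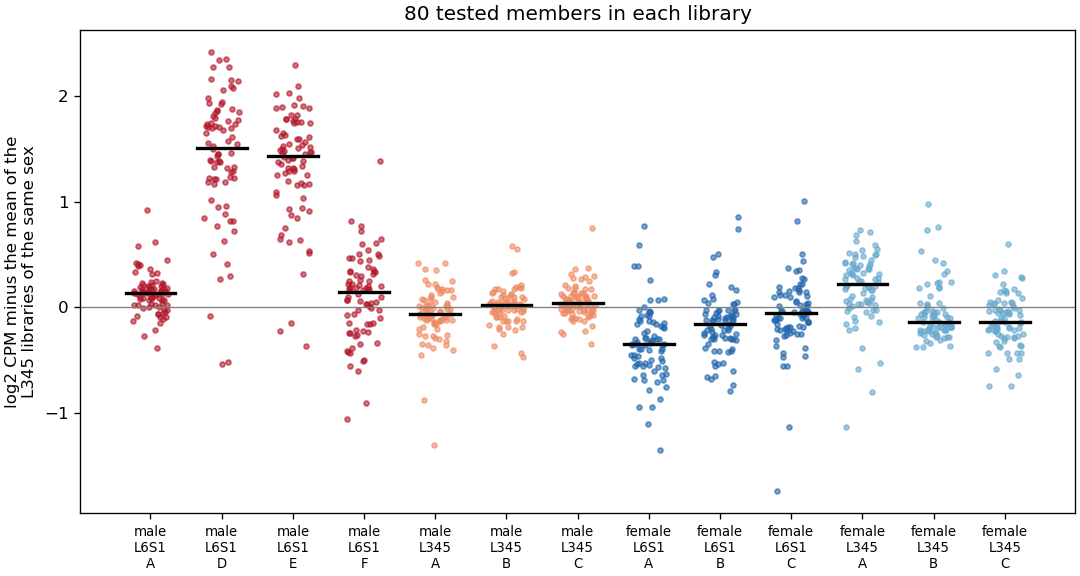
Log2 CPM of each of the 80 tested members in each library, minus the mean of the 3 L345 libraries of the same sex, with the median of the members as a bar. The medians are 1.52 in male L6S1 D and 1.44 in E, and -0.35 to 0.22 in the other 11 libraries.

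In females no member passed the test either, and most lay slightly lower in L6S1. The spread used in this test was estimated over all 4 groups, male L6S1 D and E included. By edgeR 0 of 80 members were called, where 3 of 15406 genes (0.0195%) were called, and 1 member had a p under 0.05 before adjustment, where 2.25% of all tested genes did. The log2 fold change was below 0 for 68 members, with a median of -0.20 beside 0.00 for all tested genes. All 3 female L6S1 libraries lay below all female L345 libraries for 9 members, and above for 1, where 3.86% of all tested genes lay below and 4.89% above.

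The member with a p under 0.05 was Rpl24, with 0.353, 0.481 and 0.192 CPM in female L6S1, against 1.22, 0.811 and 0.657 CPM in female L345 (log2 fold change -1.38, SE 0.59, adjusted p = 1.00 by edgeR). The groups did not overlap. Rpl38, whose loss in mice alters the translation of Hox messages, had 2.29, 3.79 and 5.61 CPM in female L6S1, against 3.39, 12.0 and 5.30 CPM in female L345. Rps13 and Rps16 followed, with log2 fold changes of -0.77 (SE 0.54) and -0.71 (SE 0.53). The highest values were those of Rpl5 at 0.56 (SE 0.34), Rps2 at 0.55 (SE 0.59) and Rps6 at 0.21 (SE 0.55), each with an adjusted p of 1.00 by edgeR.

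The female median depended most on 1 library. Female L345 A held 0.664% of its counts in the members and its median member lay 0.22 above the mean of its group, against -0.14 in both B and C. Without it the median log2 fold change in females was -0.04, and over the 13 fits that left out 1 library the range was -0.26 to -0.04. On the other side female L6S1 A was the lowest, with its median member at -0.35 from the female L345 mean, against -0.16 in L6S1 B and -0.05 in C.

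The difference of the effect of level between males and females was tested as such. No member was called, where 0 of 15406 genes (0.0%) were called, and 39 members had a p under 0.05 before adjustment, where 11.7% of all tested genes did. The median of the difference, males minus females, was 1.19 on the log2 scale over the 80 members, with 78 above 0, beside 0.05 for all tested genes. The smallest p values were those of Rpl24 at 3.10 (SE 0.80), Rps7 at 2.13 (SE 0.65), Rpl41 at 1.64 (SE 0.59), Rpl30 at 1.62 (SE 0.60) and Rps16 at 1.91 (SE 0.73), all with an adjusted p of 0.409 by edgeR. Without D and E the median was 0.31, with 72 above 0, and these members had 2.18, 0.94, 0.61, 0.55 and 0.87 in the same order.

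Males and females were also set against each other within each level. The submitters' processing notes name STAR, Salmon and mm10 for female libraries only, so the sex of the mice and the named processing cannot be told apart. At L6S1 0 of 80 members were called in males over females, where 13 of 15406 genes (0.0844%) were called. The median log2 fold change was 1.05, with 78 above 0, beside a median of 0.03 for all tested genes. Before adjustment 55 members had a p under 0.05, where 26.0% of all tested genes did. This comparison uses the same male L6S1 libraries as the one of levels in males.

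Rps7 again had the smallest p at L6S1, with 17.5, 75.2, 55.4 and 19.1 CPM in males, against 8.33, 12.7 and 12.5 CPM in females (log2 fold change 1.90, SE 0.46, adjusted p = 0.130 by edgeR). The groups did not overlap. Rpl24 followed at 2.13 (SE 0.56), Rps15 at 1.32 (SE 0.38), Rpl41 at 1.43 (SE 0.42) and Rpl8 at 1.24 (SE 0.37), all with the same adjusted p. Rpl8, a large-subunit protein near the catalytic centre, had 264, 818, 683 and 294 CPM in males, against 159, 233 and 262 CPM in females. Every male library lay above every female one for 14 members and below for 0, where 6.34% of all tested genes lay above and 5.54% below.

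Without D and E the median at L6S1 was 0.12, with 62 members above 0. The log2 fold changes were 0.70 for Rps7, 1.21 for Rpl24, 0.44 for Rps15, 0.39 for Rpl41 and 0.35 for Rpl8. Rpl28, Rps7, Rplp2 and Rpl24 then had an unadjusted p of 0.0107, 0.0294, 0.0352 and 0.0378 by edgeR. Each had an adjusted p of 0.608, the lowest among the members. The share of all tested genes with such a p in this fit is not given here. Without male L6S1 A 50 members were called, all higher in males, where 20.6% of tested genes were called, and DESeq2 called 35, where 10.9% of the genes with an adjusted p were called. Without the filter on low counts 3 were called, where 0.732% of all genes were called. With the replicate letter as a block 1 member was called, Rpl38 at 1.74 (SE 0.40, adjusted p = 0.0317 by edgeR), where 4.34% of all genes were called, but only letter A occurs in both groups.

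At L345, which holds neither D nor E, the members were close between the sexes. The spread used in the test was still that of all 4 groups, so D and E entered it. By edgeR 0 of 80 were called, where 5 of 15406 genes (0.0325%) were called, and 0 members had a p under 0.05 before adjustment, where 0.863% of all tested genes did. The median log2 fold change of males over females was -0.14, with 72 members below 0, beside 0.00 for all tested genes. The smallest p was that of Rpl24 at -0.97 (SE 0.57), followed by Rpl5 at 0.47 (SE 0.34), Rpl22l1 at -0.55 (SE 0.44), Rpl11 at -0.48 (SE 0.39) and Rpl30 at -0.45 (SE 0.43), each with an adjusted p of 1.00. Male libraries lay below all female ones for 4 members and above for 0, where 3.18% and 3.42% of all tested genes did so.

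D and E were both higher than all other 11 libraries for 69 of 80 members, where this held for 17.8% of all tested genes. D was the highest of the 13 libraries for 46 members, E for 32 and another library for 2. Yet the size of a member's difference in D said little about its size in E: Spearman's rho between both differences was 0.01 over the 80 members, which share the same male L345 libraries as baseline.

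Rps2 differed most between the pair. It had 31.1, 20.3, 146 and 40.8 CPM in male L6S1 A, D, E and F, against 24.6, 29.6 and 35.1 CPM in male L345, so that E was high and D was below all male L345 libraries. Rps2 also has copies of its 100-base words in 36 other genes. Rpl28 went the other way, with 14.3, 46.9, 12.9 and 20.4 CPM in male L6S1, against 13.8, 13.5 and 15.6 CPM in male L345. Rpl28 was chosen after its values were seen. The stalk proteins split as well: Rplp2 lay 2.17 above the male L345 mean in D and 0.75 in E on the log2 scale.

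**Figure D4:**
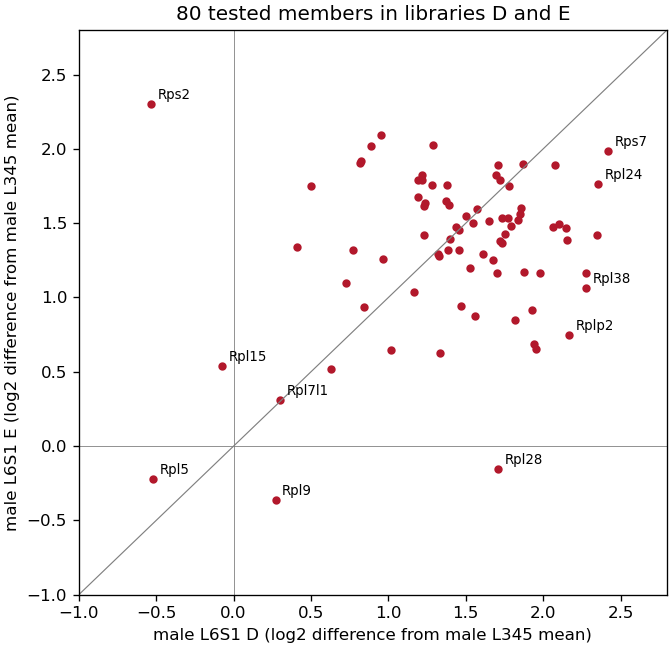
Log2 CPM minus the mean of the 3 male L345 libraries for each of the 80 tested members, in male L6S1 D (x axis) and E (y axis), with the line of equal values. Most members lie above 0 on both axes. Rps2 is at -0.54 in D and 2.30 in E, and Rpl28 at 1.71 in D and -0.15 in E.

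The members also differed in their spread over all 13 libraries. Rpl38, Rps7 and Rpl24 had the largest standard deviations of log2 CPM, at 0.90, 0.89 and 0.89. Rpl7l1 had the smallest at 0.14, followed by Rpl15 at 0.26 and Rpl9 at 0.31. Rpl7l1 had 84.5, 92.2, 93.0 and 84.5 CPM in male L6S1, against 77.1, 75.5 and 72.1 CPM in male L345, 79.1, 73.5 and 80.6 CPM in female L6S1 and 83.0, 66.3 and 77.7 CPM in female L345. Its partner Rpl7 had 119, 250, 378 and 93.9 CPM in male L6S1, against 111, 106 and 111 CPM in male L345. D and E were thus far from the rest for Rpl7 and near it for Rpl7l1.

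The other well-counted paralogs, Rps27l and Rpl22l1, went with the bulk of the members. Rps27l had 54.5, 151, 113 and 48.9 CPM in male L6S1, against 47.9, 46.3 and 47.4 CPM in male L345. Rpl22l1 had 39.7, 96.9, 100 and 26.1 CPM in male L6S1, against 34.7, 35.7 and 32.2 CPM in male L345. Rpl22, the partner of Rpl22l1, had 106, 172, 183 and 95.5 CPM in male L6S1, against 93.3, 98.2 and 96.7 CPM in male L345. It lay 0.84 and 0.93 above the male L345 mean in D and E on the log2 scale, below the first quartiles of the members at 1.21 and 1.16.

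Both subunits gave like values. In males the median log2 fold change was 0.97 over the 32 small-subunit members, all of them above 0, and 1.00 over the 48 tested large-subunit members, with 46 above 0. Without D and E these medians were 0.08 and 0.11. Against the male L345 mean, the median of the small-subunit members was 1.65 in D and 1.44 in E, and that of the large-subunit members was 1.42 in D and 1.45 in E.

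Gene length moved with the same libraries. Over all tested genes, the median log2 difference from the male L345 mean was 1.13 in D and 1.11 in E for genes under 1000 bases, and it was lower in each longer class, down to -0.65 in D and -0.97 in E for genes of 8000 bases or more. In A and F the medians were 0.09 and 0.00 for genes under 1000 bases, and -0.17 and -0.46 for the longest class. Members under 1000 bases (27 genes) had medians of 1.74 in D and 1.42 in E, against 1.10 and 1.10 for the 1088 other genes of that class. Members of 2000 bases or more (26 genes) had medians of 1.30 and 1.33, against -0.25 and -0.33 for the 11813 other genes. The length in the files is the union of the exons listed there, for all 83 members. It was longer than the principal GENCODE M21 transcript for 63 members, shorter for 17 and equal for 3, with ratios of 0.521 to 6.79. Levels per kb, the length classes and the loess correction for gene length all carry this difference. In the class of 2000 bases or more, Rps18 had 2491 bases in the files and 560 in the transcript. Rpl35a had 3526 and 519. Members with short messages were thus set beside other genes by listed length alone.

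Other lists moved with D and E too. The 4 protein-coding relatives outside the name pattern had a median difference of 1.61 in D and 1.60 in E. The 75 tested genes of the mitochondrial ribosome, which is built from other proteins, had 1.19 and 1.38. The 36 short nuclear genes of oxidative phosphorylation had 1.86 and 1.35, so that they exceeded the cytosolic members in D. Elongation factors and their partners (10 genes) had 0.55 and 0.90.

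Other genes that act on ribosomes lay nearer to 0 or below it in D and E. The median was 0.16 in D and 0.38 in E for 32 initiation genes, 0.11 and 0.21 for 36 genes of ribosome biogenesis, and -0.36 and -0.76 for 19 regulators of growth and translation of the mTOR pathway and related ones. The 24 long neuronal transcripts had -0.66 and -1.26. In males none of these lists had a called gene. Their median log2 fold changes there were 0.86 for the mitochondrial ribosome (51 of 75 with an unadjusted p under 0.05), 1.09 for oxidative phosphorylation (32 of 36), 0.55 for elongation (4 of 10), 0.05 for initiation (10 of 32), 0.13 for biogenesis (9 of 36), -0.08 for the regulators (2 of 19) and -0.66 for the long neuronal transcripts (13 of 24), beside 0.97 for the members (54 of 80) and a share of 25.3% over all tested genes. The mitochondrially encoded genes had -0.01, with 0 of 7, but their libraries split: the median difference was 0.74 in D and 0.59 in E, with 7 of 7 above 0 in both, and -0.23 in A and -0.94 in F.

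Without D and E the median log2 fold changes in males were 0.10 for the mitochondrial ribosome, 0.14 for oxidative phosphorylation, 0.21 for elongation, -0.04 for initiation, -0.05 for biogenesis, 0.16 for the regulators, -0.43 for the long neuronal transcripts and -0.58 for the mitochondrially encoded genes, beside 0.10 for the members. The direction for initiation, biogenesis and the regulators was thus the opposite of that with all libraries.

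Single genes of these lists, picked for a small p in males, reached sizes like those of the members, and Ank3 went in the opposite direction. Genes with a small p in males from these lists were Mrpl4 at 0.99 (SE 0.30), Fau at 1.61 (SE 0.49), Ndufs5 at 1.32 (SE 0.38), Eif3k at 1.51 (SE 0.40), Nhp2 at 1.17 (SE 0.36) and Ank3 at -1.08 (SE 0.35), each with an adjusted p of 0.137 by edgeR. Eef1d followed at 0.70 (SE 0.28, adjusted p = 0.157).

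**Figure D5:**
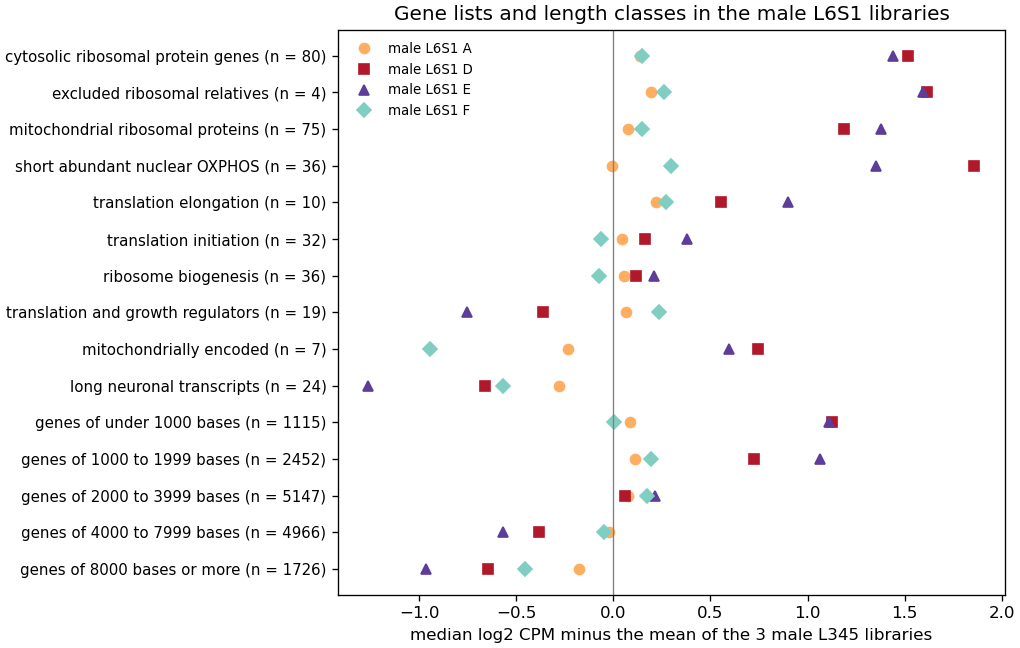
Median log2 CPM of each gene list and of all tested genes by length class, minus the mean of the 3 male L345 libraries, for the 4 male L6S1 libraries. In D and E the cytosolic members, their relatives, the mitochondrial ribosomal genes and the short oxidative phosphorylation genes lie between 1.19 and 1.86, and the long neuronal transcripts at -0.66 and -1.26.

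Markers of other cell types were also uneven among the male L6S1 libraries, and their part in the result was not tested. The 14 immune markers summed to 14.2, 31.3, 46.6 and 19.0 CPM in A, D, E and F, against 8.86 to 20.1 CPM in male L345, with C1qa at 0 in all 4 of these male L6S1 libraries. Only 5 of these 14 passed the low-count filter, and most of the sum was Cd74, H2-Aa, C1qb and Lyz2. C1qb, part of the complement of macrophages, was the one marker called in males, at 2.66 (SE 0.48, adjusted p = 0.0315 by edgeR). C1qc, Ptprc, Csf1r, Cx3cr1, Cd68 and Itgam stayed at 0.526 CPM or lower in male L6S1. The 9 fibroblast markers summed to 150, 276, 591 and 145 CPM, against 80.4 to 155 CPM in male L345, most of it Dcn. The 15 markers of satellite glia and Schwann cells summed to 4297, 4677, 9695 and 3983 CPM, against 4197 to 4883 CPM in male L345, and Apoe alone was 4985 CPM in E, where the median of the 15 markers lay at -0.72 from the male L345 mean.

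The 7 skeletal muscle markers, of which 2 passed the low-count filter, summed to 6.68, 17.2, 15.7 and 7.14 CPM in male L6S1, against 3.75 to 4.76 CPM in male L345. Most of that sum was Acta1, at 3.47, 10.9, 7.37 and 4.45 CPM, and Mylpf, at 2.85, 5.75, 7.08 and 2.26 CPM. Ckm, Tnnt3 and Myh2 stayed at 0.377 CPM or lower in male L6S1. Myh4 appeared there only in E, at 0.994 CPM, and Myh1 was at 0 in these male libraries. The 5 red blood cell markers summed to 4.01, 7.63, 8.25 and 2.26 CPM, against 0.465 to 10.2 CPM in male L345. The 10 endothelial and mural markers summed to 362, 236, 169 and 159 CPM, against 269 to 454 CPM in male L345. Most of that sum is Rgs5, at 336, 199, 133 and 120 CPM, while the median of the 10 markers lay 0.29 above the male L345 mean in D, with 7 above 0, 0.27 in E, with 6 above 0, and 0.28 in F, with 8 above 0. In pools of sorted cells, fewer cells of a type and less RNA per cell cannot be told apart.

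The promoters of the members were searched for motifs known from ribosomal protein genes. A window from 250 bases before to 50 bases after the start was found in the RefSeq table (GRCm38.p6) for 63 members. The letters CCGGAAG, or CTTCCGG on the other strand, which are those of ETS-family and GABP binding sites, stood in 25 of them (39.7%), against 2465 of 27025 windows in all (9.12%). AAGATGGC or GCCATCTT, the core letters of the YY1 motif, stood in 5 (7.94%), against 778 (2.88%). Both were searched as exact letters on both strands, and matches to them can overlap by the letters CTT. The 100 bases before the start are shown for Rps7, Rpl41 and Rpl7l1. Rps7 and Rpl41 are among the 5 members with the smallest p in males and hold the first motif. Rps15 and Rpl27, also among these 5, have a window without it, and for Rpl30 none was found. Rpl7l1, whose level varied least, lacks it. Of the next least variable members, Rpl15 holds it and Rpl9 does not. Capitals mark CCGGAAG or its reverse. The starts are those of the RefSeq table. For Rpl41 the window lies inside the gene as counted here, which spans bases 128548114 to 128549305.
Rps7 (chr12:28635954-28636053, minus strand): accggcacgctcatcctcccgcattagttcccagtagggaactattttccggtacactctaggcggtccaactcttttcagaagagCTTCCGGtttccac
Rpl41 (chr10:128549169-128549268, minus strand): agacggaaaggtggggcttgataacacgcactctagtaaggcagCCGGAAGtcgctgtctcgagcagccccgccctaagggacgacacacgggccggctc
Rpl7l1 (chr17:46782657-46782756, minus strand): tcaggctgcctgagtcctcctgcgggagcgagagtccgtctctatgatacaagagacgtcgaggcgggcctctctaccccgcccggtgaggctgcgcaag
The 24 tested members with the motif had median differences of 1.48 in D and 1.37 in E, and the 36 without it 1.39 and 1.35. In males the median log2 fold changes were 0.97 with it and 0.91 without it, and without D and E they were 0.11 and 0.07. A match is a description of letters and does not show that a factor binds there.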

How the data were processed

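Gene expression was measured by RNA sequencing of 13 pools, each starting from 10 ng of RNA and amplified with the SMARTer Ultra Low Input chemistry, per the labels' protocols. The authors deposited for each library a count of reads per gene, whole and not normalized, with a CPM and an RPKM. The deposited CPM equals the count over the library total and the deposited RPKM that CPM per kb of gene length, to within a relative difference of 5.21e-14, so both only served as a check. The submitters' processing notes name Subread, featureCounts 1.4.5 and GRCm38.p2 for all libraries, and STAR 2.0.4b, Salmon and mm10 for the female ones. Handling of multi-mapped reads and of strand is not given in the sources used here, so counts of near-identical copies, of overlapping genes and of antisense partners are uncertain.

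Symbols came from GENCODE M21, which matched 40340 of 41388 identifiers. The unmatched 1048 held 0.0828% of counts. Counts were filtered with filterByExpr, scaled by TMM and tested in edgeR 4.0.16 (R 4.3.3) by its quasi-likelihood test with robust dispersion shrinkage, with 1 mean per group over all 13 libraries (9 residual degrees of freedom) and Benjamini-Hochberg adjustment over 15406 genes. Genes with an adjusted p under 0.05 count as called. The SE was obtained by dividing the size of a log2 fold change by the root of its F value. Log2 differences between libraries used a prior count of 2. Replicates are separate pools of mice. In this fit the spread behind each SE and p-value was estimated per gene over all 4 groups together. The SD of the library medians of the members was 0.772 in male L6S1, against 0.0530 to 0.209 in the other groups. Tests in females and at L345 thus also carry the spread of male L6S1. A trial of the fit on simulated data gave all libraries the same spread per gene, with none apart as D and E are. That trial therefore cannot show how the tests behave with such libraries.

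Members, gene lists, markers and tests were chosen with earlier results of these data known. Named members are the 5 with the smallest p per comparison, the 3 largest differences in each direction in males and in females, the 5 highest and 5 lowest tested members per kb, the 3 largest and 3 smallest standard deviations, the paralogs with their partners, and 11 members fixed by name. Other lists name up to 3 genes with the smallest p in males. Some genes that these rules pick are not reported here.

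The main fit treats no libraries as pairs, and the replicate letter entered only as the block of an alternative fit of all libraries. Same-letter correlations of deviations from the group means were set against a cut-off of 0.1. These were 0.520, 0.203 and 0.488 between female levels, and 0.505, 0.221 and 0.349 between the sexes at L345. Female L345 C reached 0.252 with female L6S1 B and 0.268 with male L345 B. Other unlike letters gave -0.556 to 0.0229 between female levels and -0.433 to 0.174 between the sexes at L345. The cut-off thus does not show that letters mark paired pools. The male levels, and the sexes at L6S1, share only letter A, with correlations of 0.101 and 0.357. Alternatives were other scalings, no filter, DESeq2 1.42.0, limma 3.58.1 voom with and without quality weights, a length correction, the block, fewer libraries and fewer groups. Shared words of 50 and 100 bases were counted between GENCODE transcripts on both strands, leaving out genes that overlap a member.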

Additional observations from a re-analysis of the deposited data

Results flagged for a closer look

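In the 4 libraries of male L6S1, the share of counts and the named members were searched for a library far from the other 3, which chance gives in about 1 of 20 groups. Of 41 results, 2 had such a library. Rps2 had 146 CPM in E, against 31.1, 20.3 and 40.8 CPM in A, D and F, so that the gap to the nearest library was 0.837 of the range. Rpl3l, the muscle form of Rpl3, had 0.141 CPM in D and 0 in A, E and F, a gap that is the whole range (a ratio of 1) and comes from 3 counts. The summed share of the members was not among them, because D and E were both high.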

How the results depend on the processing

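No member was called in any of the 5 comparisons by edgeR. Other settings called some, all of them higher in the first group. For L6S1 over L345 in males, 4 members were called without a filter on low counts (Rps7, Rps15, Rpl30 and Rpl41, where 0.981% of all genes were called) and 16 by DESeq2. For males over females at L6S1, 3 were called without the filter (Rps7, Rps15 and Rpl41, where 0.732% of all genes were called), 35 by DESeq2 and 1 with the replicate block (Rpl38). Leaving out 1 library at a time gave 0 to 46 called members in males and 0 to 50 between the sexes at L6S1, the upper ends without male L6S1 A and 0 without any of the other 12. The cause was not tested. In females, for the difference between the sexes, and at L345, 0 members were called under all alternatives run. In the main fit 0.0195%, 0.0% and 0.0325% of all tested genes were called there, in the same order. With so few calls among all genes, a count of 0 does not set the members apart from other genes. The shares of all genes called under the alternatives of these comparisons are not given here.

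The median log2 fold change of the members kept its sign under all alternatives. Without male L6S1 D and E it was 0.10 in males, 0.31 for the difference and 0.12 between the sexes at L6S1, with fewer samples in the fit. With the replicate block it was 0.10, 0.27 and 0.17, resting in males on letter A alone because only A occurs at both male levels. In females and at L345, where every letter occurs in both groups, the block changed no call of a member. Scaling by library totals moved the median of all tested genes in males to -0.08 and that of the members to 0.79, so the members lay above the other genes on both scales. With totals scaled by TMM the share of the members was 1.51% in D and 1.41% in E, against 1.39% and 1.12% of plain totals, and in male L345 it was 0.512%, against 0.523%. Fits limited to the groups compared were run for all comparisons other than the difference, which needs all 4 groups. Of the values of single named members, 27 passed the threshold under an alternative, 742 stayed on the same side of it and 0 reversed a call.

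Depth was low for some members: Rps6, Rps13, Rps27, Rps29, Rpl23a and Rpl24 had 61 counts or fewer in each library. Differences of members that share sequence with copies also depend on how such reads were counted.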
